A study of Mus musculus with 2 samples.

Results

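The Ly6 genes encode small surface proteins of white blood cells, vessels, epithelia and sperm. The 8 described here were Ly6a, Ly6c1, Ly6c2, Ly6e, Ly6i, Ly6h, Ly6d and Ly6k, taken by symbol from a table of 18722 loci. They were selected on their counts and FPKM in both libraries, with earlier results of the same comparison known, so the values below are a description. RNA from testes of male C57BL/6J mice aged 16 weeks was sequenced in 2 libraries. The control library is labelled WT and shControl, and the knockdown library is labelled Dmrt1 knockdown and shDmrt1, a hairpin RNA against the transcription factor Dmrt1. There was 1 library per group, and the labels do not say how the hairpins were delivered, which testis cells took them up, or the number of animals behind each library. Every difference below is therefore a difference between 2 libraries, without a replicate check and without a test.

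Proteins of the Ly6/uPAR family share a compact domain of finger-like loops held by disulphide bonds. Most are tethered to the outer face of the cell membrane by a glycosylphosphatidylinositol (GPI) anchor, a lipid added in the endoplasmic reticulum. In the mouse, Ly6a (Sca-1) marks blood-forming stem cells, vessel lining and activated lymphocytes, Ly6c2 is the Ly6C form of inflammatory monocytes, and Ly6c1 is the form of vessel lining and some lymphocytes. Ly6e is induced by interferon and is the receptor for a placental fusion protein. Ly6d is found on early B cells and stratified epithelia, Ly6h in the brain, and Ly6k in male germ cells, where it associates with Tex101 and is needed for sperm to enter the oviduct.

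All 8 genes are protein-coding and lie on mouse chromosome 15 within 805 kb (GENCODE M21, GRCm38). Ly6a, Ly6i, Ly6c1 and Ly6c2 are near-copies of each other, and a read from any of them may have been assigned to the wrong gene, or dropped. Their first 120 coding bases are shown because few positions tell the 4 genes apart there. In this stretch Ly6a and Ly6i are more alike than over their whole coding sequence, and Ly6c1 and Ly6c2 less. Capitals mark the 16 positions at which the genes are not all alike.
Ly6a: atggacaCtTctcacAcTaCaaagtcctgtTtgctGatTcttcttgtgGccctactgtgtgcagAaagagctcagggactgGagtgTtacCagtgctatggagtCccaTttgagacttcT
Ly6i: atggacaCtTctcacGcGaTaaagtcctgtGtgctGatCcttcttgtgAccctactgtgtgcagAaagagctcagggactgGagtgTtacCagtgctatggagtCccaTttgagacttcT
Ly6c1: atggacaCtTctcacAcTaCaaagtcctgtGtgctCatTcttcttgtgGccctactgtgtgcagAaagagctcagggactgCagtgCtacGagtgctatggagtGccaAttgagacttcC
Ly6c2: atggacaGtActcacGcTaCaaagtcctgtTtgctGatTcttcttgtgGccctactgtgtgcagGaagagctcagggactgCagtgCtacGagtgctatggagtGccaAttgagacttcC

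Over the whole coding sequence, Ly6c1 and Ly6c2 were identical at 97.7% of aligned positions, with 9 differences in 396 bases. Ly6a and Ly6i were identical at 86.4%, with 55 differences in 405 bases. Each of the latter was 81.5% to 82.0% identical to Ly6c1 and Ly6c2. Between any other pair of the 8 genes, identity was 46.8% to 53.9%, so the near-copy problem concerns these 4 genes.

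The share of a gene's transcripts that another annotated gene repeats letter for letter shows where reads cannot be placed. Of all stretches of 50 bases in the transcripts of Ly6c1, 32.8% also occurred in another gene, including 21.5% in Ly6c2 and 11.1% in Ly6a. For Ly6a the share was 19.0%, mostly with Ly6c1, and for Ly6c2 it was 14.5%. For Ly6i it was 4.76%. With stretches of 100 bases, the shares were 10.1% for Ly6c1, 5.81% for Ly6c2, 1.45% for Ly6a and 0% for Ly6i. Ly6i was thus the most separable of the near-copies, and Ly6c1 the least. Ly6d and Ly6e shared no stretch of 50 bases with another gene, and Ly6h shared 0.206%. Ly6k lies inside the antisense gene Gm17189 on the other strand, with which it shared 32.7% of its stretches of 50 bases. Which strand was counted is not given in the sources used here, although the library kit was stranded. So it is not known whether reads from those shared stretches were kept apart between Ly6k and Gm17189, which is not in the deposited table. The read length, and how reads matching several genes were treated, are not given either.

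**Figure D1:**
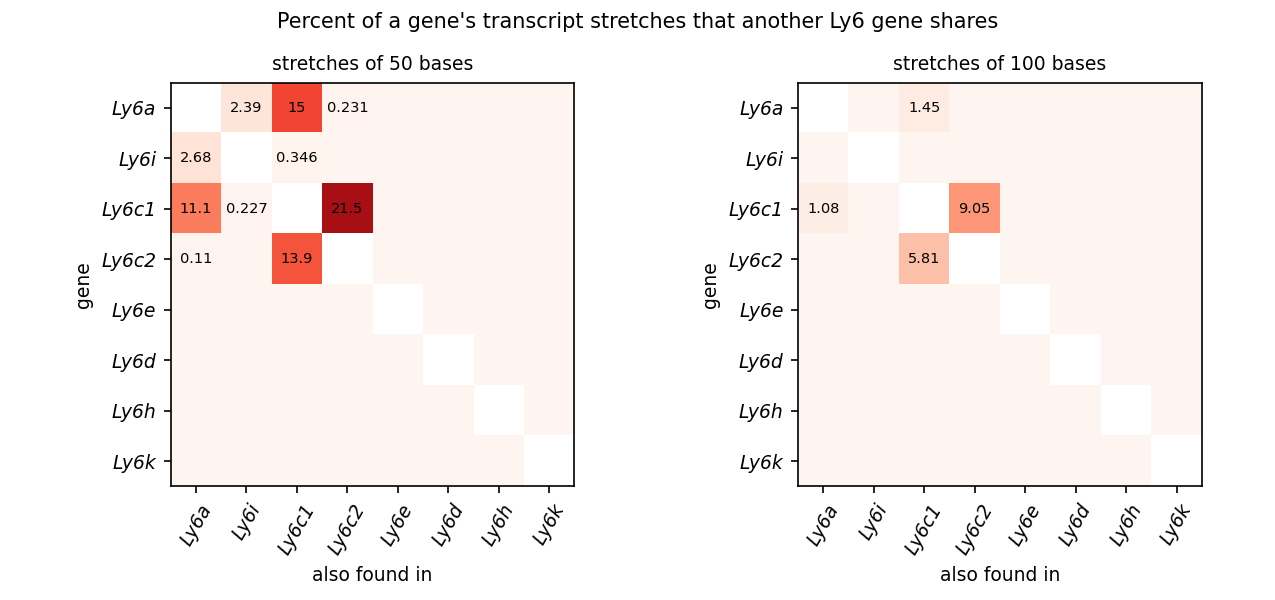
Percent of the stretches of 50 bases (left) or 100 bases (right) in each row gene's GENCODE M21 transcripts that also occur in the column gene. The highest shares are those of Ly6c1 with Ly6c2 (21.5% at 50 bases and 9.05% at 100 bases), and off the diagonal a cell without a number is 0.

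Total counts were 17846426 (control) and 24594371 (knockdown). Ratios are of the knockdown over the control library, from counts scaled by TMM, which sets the bulk of genes equal between libraries. Their 95% intervals are Clopper-Pearson intervals of the knockdown share of both counts, and they cover counting error only. Scaling by library totals instead lowered every log2 ratio by a median of 0.44 (-0.44). Dmrt1 had 852 and 39 counts (control first, here and below), 21.9-fold lower, and Spry1, a gene named in the series title, had 389 and 209 counts, a log2 ratio of -0.91. The defining genes of testis were present in the control library, where 7 Leydig cell genes summed to 23376 CPM (counts scaled by the library total) and 9 Sertoli cell genes to 1263 CPM. Germ cell genes were scarce, with 315 CPM for 16 genes. In the knockdown library the same sums were 240, 171 and 54.2 CPM. The germ cell sums lean on the gene Hspa2, which gave 109 of the 315 CPM and 50.2 of the 54.2 CPM. With 1940 and 1234 counts, Hspa2 had a log2 ratio of -0.67, the smallest fall among the 16 genes. The knockdown sum thus says little about the rest of that list.

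All 8 Ly6 genes had at least 1 CPM in both libraries, where 1 library sufficed to be tested. Calls of higher or lower required a ratio of 1.5-fold or more with an interval that excluded 1. By that rule 4 genes were higher in the knockdown library (Ly6i, Ly6c2, Ly6a and Ly6e), 3 were lower (Ly6k, Ly6h and Ly6d) and Ly6c1 was neither. Across all 15104 loci tested, 29.7% were higher and 32.5% lower by the same rule, and with library totals 20.6% were higher and 45.6% lower. The stricter rule, with the whole interval beyond 2-fold, left 3 Ly6 genes higher and 3 lower, against 17.8% and 20.8% of all loci. The median log2 ratio of the 8 genes was 0.17 and that of all loci tested was -0.02. The authors' deposited table, a comparison by EBSeq of the same 2 libraries, calls Ly6i, Ly6c2 and Ly6a up, Ly6k and Ly6h down, and the other 3 genes normal. It calls 10.5% of 15104 loci up and 14.2% down.

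**Figure D2:**
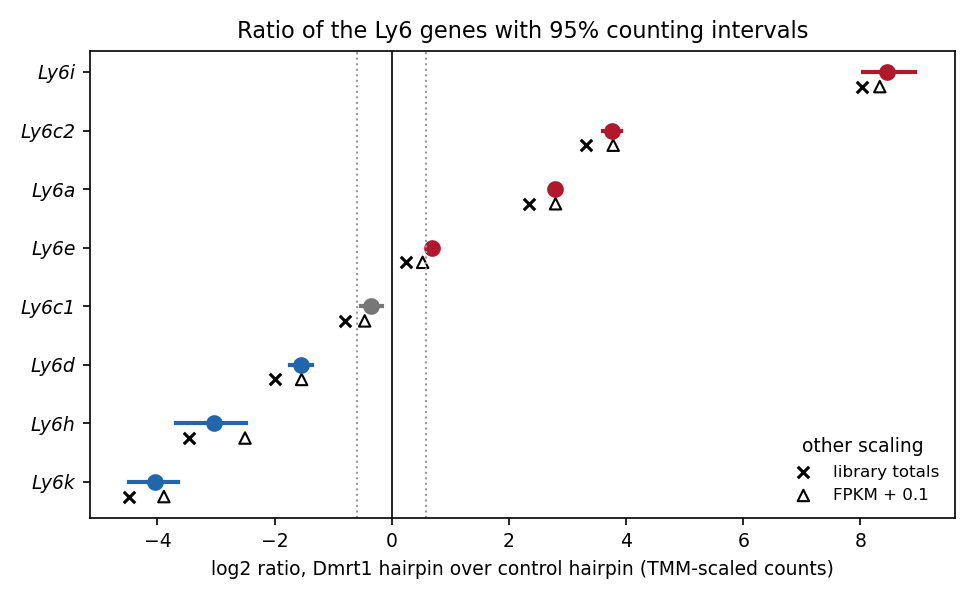
Log2 ratio of knockdown over control for the 8 Ly6 genes (circles, TMM-scaled counts; bars, 95% counting intervals; dotted lines, 1.5-fold). Red marks genes called higher, blue lower and grey neither, crosses the ratio scaled by library totals and triangles the ratio of deposited FPKM plus 0.1. The order runs from Ly6k at -4.04 to Ly6i at 8.46, and the choice of scaling moves Ly6e and Ly6c1 across the 1.5-fold lines.

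Levels per length, as deposited FPKM (fragments per length of transcript and depth of library), set the genes in a different order in each library. In the control library the order was Ly6e, Ly6a, Ly6d, Ly6k, Ly6c1, Ly6c2, Ly6h and Ly6i. In the knockdown library it was Ly6e, Ly6i, Ly6a, Ly6c2, Ly6c1, Ly6d, Ly6k and Ly6h. Ly6e stood first in both. Ly6i moved from last to second. With 1 library per group, there is no spread against which neighbours in either order can be compared. The FPKM values of the 8 genes summed to 1795 (control) and 5350 (knockdown). Ly6e made up 72.8% and 35.2% of those sums, and Ly6i 0.282% and 31.1%.

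**Figure D3:**
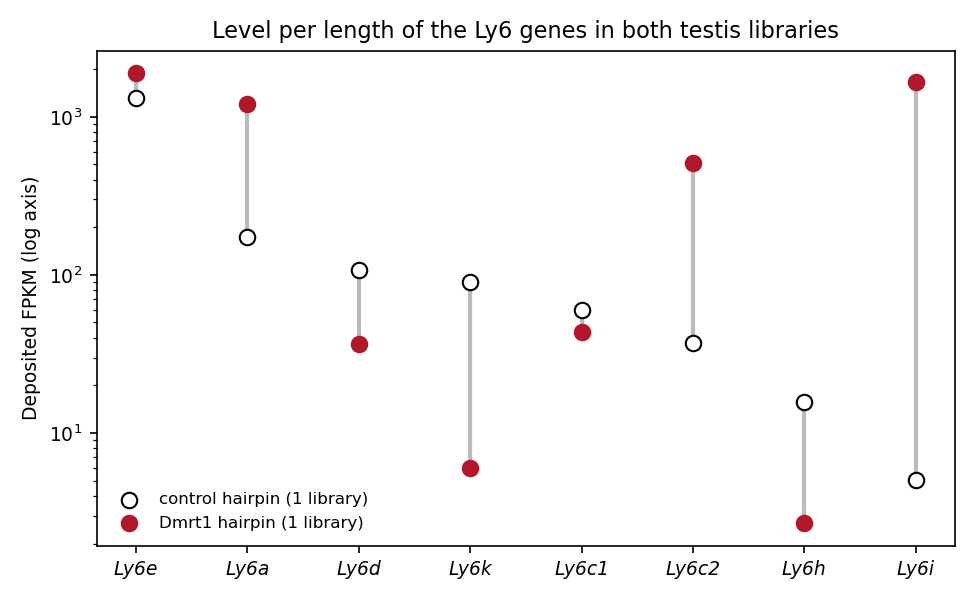
Deposited FPKM of the 8 Ly6 genes on a log axis, ordered by their level in the control library (open circles, control hairpin; filled circles, Dmrt1 hairpin; 1 library each). Ly6i spans the longest line, from 5.06 to 1662 FPKM, and Ly6e starts and ends at the top, at 1307 and 1885 FPKM.

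Ly6i, a close relative of Ly6a described on mouse white blood cells, received 44 reads in the control library against 15914 with Dmrt1 knocked down. Per length these were 5.06 and 1662 FPKM. In rank by FPKM among all loci, Ly6i stood 9469th in the control library and 97th in the knockdown library. The scaled ratio was 353-fold, or 8.46 on the log2 scale (95% counting interval 8.05 to 8.94), the 28th highest of the 15104 loci tested. The authors' deposited table gives it a log2 fold change of 8.40 with a false discovery rate (FDR) listed as 0. Because only 44 reads stand in the control library, that count sets most of the interval, and a few reads misplaced from Ly6a there would change the fold.

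Ly6c2, the monocyte form of Ly6C, received 379 control and 5189 knockdown reads, or 37.2 and 512 FPKM. Its knockdown level was 13.5-fold higher, with a log2 ratio of 3.75 and an interval of 3.60 to 3.91. Ly6c1, its near-copy, had 579 and 461 counts, or 60.2 and 43.7 FPKM, with a ratio of -0.35 on the log2 scale (-0.53 to -0.17). By library totals the ratio of Ly6c1 was -0.79, which the 1.5-fold rule calls lower. The genes thus swapped order: Ly6c1 was above Ly6c2 in the control library, and Ly6c2 was far above Ly6c1 in the knockdown library. Of the reads given to either gene, Ly6c2 held 39.6% in the control (36.4% to 42.7%, Clopper-Pearson) and 91.8% in the knockdown library (91.1% to 92.5%). Summed as a single unit, both genes had a log2 ratio of 2.54. Most stretches of 50 bases are found in only one of the pair, but 21.5% of those of Ly6c1 and 13.9% of those of Ly6c2 are in both, and how reads that match both were assigned is not given.

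Upstream of their starts the near-copies Ly6c1 and Ly6c2 differ more than in their coding sequence. RefSeq promoters on GRCm38.p6 were on hand for 2 of the 8 genes, Ly6c1 and Ly6c2. Their best local alignment before the start, between the most similar of the annotated starts, was identical at 72.2% of 227 positions, with 51 differing bases and 12 gap positions. It is shown because the pair differs so in ratio. Capitals mark bases that differ or have no partner in the other sequence, and both are on the minus strand, at chr15:75048839-75049056 for Ly6c1 and chr15:75111998-75112221 for Ly6c2.
Ly6c1: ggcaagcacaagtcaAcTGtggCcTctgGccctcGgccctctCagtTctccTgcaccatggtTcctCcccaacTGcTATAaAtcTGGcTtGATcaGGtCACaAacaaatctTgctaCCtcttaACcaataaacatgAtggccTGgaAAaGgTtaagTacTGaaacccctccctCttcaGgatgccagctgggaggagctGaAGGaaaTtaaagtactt
Ly6c2: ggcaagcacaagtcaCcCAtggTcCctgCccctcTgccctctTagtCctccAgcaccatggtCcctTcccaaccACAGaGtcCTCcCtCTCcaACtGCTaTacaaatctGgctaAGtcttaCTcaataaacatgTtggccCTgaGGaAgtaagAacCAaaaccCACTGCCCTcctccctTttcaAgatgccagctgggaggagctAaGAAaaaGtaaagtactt

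Neither gene's 300-base promoter windows, of which there are 2 each, held any of 4 motifs searched on both strands. These were the interferon-stimulated response element (GAAA, any 2 bases, GAAA), the gamma-activated site (TTCNNNGAA), an NF-kB site (GGGA, any 2 bases, TTCC) and the core of the Dmrt motif (ACATTGT). Of all 32851 RefSeq promoter windows of that length, 3.44%, 8.30%, 1.47% and 2.96% held them, in that order. The absence of a match says only that these letters are not in these windows.

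Ly6a, the stem cell antigen Sca-1, received 1979 control and 13905 knockdown reads, or 173 and 1202 FPKM. Its knockdown level was 6.93-fold higher, at a log2 ratio of 2.79 (interval 2.72 to 2.86). Its rank by FPKM moved from 451st to 130th. Ly6a, Ly6i, Ly6c1 and Ly6c2 summed to 2981 and 35469 counts, a log2 ratio of 3.55. Within those sums Ly6a went from 66.4% (64.7% to 68.1%) to 39.2% (38.7% to 39.7%), while Ly6i went from 1.48% (1.07% to 1.98%) to 44.9% (44.3% to 45.4%). Ly6c1 went from 19.4% to 1.30%, and Ly6c2 from 12.7% to 14.6%. Any exchange of reads among the 4 genes leaves the summed ratio as it is. Reads dropped for matching several genes could change it, and whether any were dropped is not given.

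Ly6e, the interferon-induced member that most tissues express, received 13028 control and 21369 knockdown reads. Its levels of 1307 and 1885 FPKM ranked 48th and 84th among all loci. The scaled ratio was 1.62-fold, or 0.69 on the log2 scale (0.66 to 0.73). By library totals it was 0.25 and by deposited FPKM 0.53, both short of 1.5-fold, so the call of Ly6e as higher depends on the scaling. The authors' deposited table gives 0.68, an FDR of 0.933 and the call normal. Of the 4 genes called higher, Ly6e was the most abundant in both libraries and had the smallest ratio.

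The 3 lower genes are not near-copies of each other. Ly6k, the germ cell member, received 883 control and 54 knockdown reads, or 89.9 and 5.98 FPKM. Its knockdown level was 16.4-fold lower, at a log2 ratio of -4.04 (interval -4.48 to -3.65). Its rank by FPKM was 889th and 8903rd. Tex101, whose protein pairs with that of Ly6k in the mouse, had 107 counts and 1 count, for a log2 ratio of -6.18 with an interval of -12.08 to -4.25. All 16 germ cell genes were lower as well, beside 32.5% of all loci, though 14 of them reached 1 CPM in the control library alone. The median log2 ratio of the 16 was -4.72. Among them, Ldhc, a sperm lactate dehydrogenase, had 1085 and 2 counts, and Piwil1, of the piRNA pathway, 305 and 0 counts. Per length, Ly6k in the control library stood above all 16 germ cell genes, of which Ldhc was highest at 55.8 FPKM. It also stood above Tex101, at 6.48 FPKM there. In bulk tissue, fewer cells of a type and less RNA per cell cannot be told apart.

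Ly6h, the brain member, which modulates nicotinic receptors, received 229 control and 28 knockdown reads. Per length these were 15.7 and 2.69 FPKM. It was 8.17-fold lower by scaled counts, or -3.03 on the log2 scale (-3.67 to -2.48), and 5.84-fold lower by FPKM. Ly6h had the fewest reads of the 8 genes in the knockdown library. Ly6d had 931 and 322 counts, or 107 and 36.8 FPKM. It was 2.93-fold lower, or -1.55 on the log2 scale (-1.74 to -1.37). The authors' deposited table gives Ly6d a log2 fold change of -1.56, an FDR of 0.0657 and the call normal. Of 9 B and plasma cell genes, 8 were higher and 1 lower (Derl3, of the secretory pathway, at -0.91), with a median of 1.06, beside 29.7% and 32.5% of all loci. With the whole interval beyond 2-fold, 2 of the 9 were higher and 0 lower. Of 5 epithelial genes at 1 CPM, 3 were higher, 1 lower and 1 neither. The lower one was the adhesion gene Epcam, at -1.55. Cdh1, another adhesion gene, was at 1.42 and the keratin gene Krt8 at 1.19.

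The stretch of chromosome 15 from 100 kb before the first to 100 kb after the last Ly6 gene holds 58 annotated genes, of which 22 were in the deposited table and 18 had at least 1 CPM in 1 library. Of the 10 that are not among the 8 Ly6 genes, 2 were higher, 4 lower and 4 neither. Across all loci 29.7% were higher and 32.5% lower, so the count is no result about these genes. The higher ones, Ly6g and Gpihbp1, reached 1 CPM in the knockdown library alone, and Gml in the control library alone. In order along the chromosome, Arc was lower, Jrk and Them6 were neither, and Lynx1, Ly6d, Ly6k and Gml were lower. After 2010109I03Rik, which was neither, Ly6e, Ly6i and Ly6a followed as higher, then Ly6c1 as neither, and Ly6c2 and Ly6g as higher. Beyond them, Ly6h was lower, Gpihbp1 higher, Zfp41 neither and Top1mt lower. By library totals Ly6e was neither and Ly6c1 lower. The shift of -0.44 with library totals would also make Them6 (-0.40) and Zfp41 (-0.17) lower, so these calls depend on the scaling. Whether the order of calls departs from chance was not tested. Lynx1, named here after its values were seen, encodes a brake on nicotinic receptors and had 1274 and 274 counts, a log2 ratio of -2.24. Ly6i and Ly6a start 219.8 and 234.4 kb from the start of Ly6d, and Ly6c1 lies between genes called higher, at 285.2 kb.

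**Figure D4:**
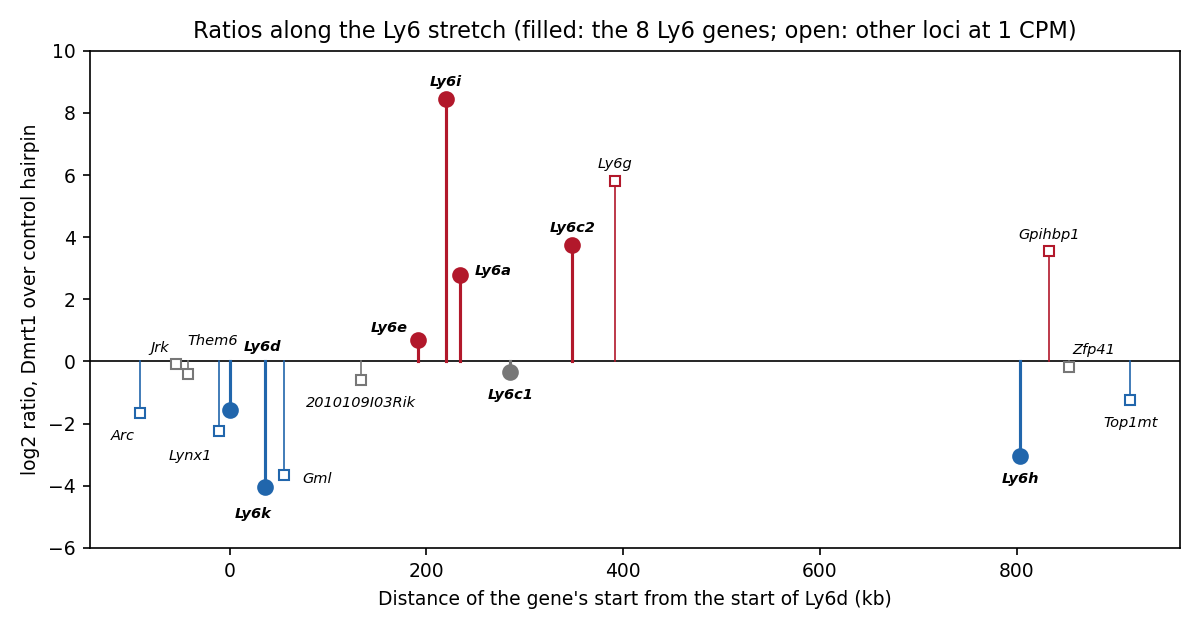
Log2 ratio of knockdown over control (vertical axis) against the distance of each gene's start from that of Ly6d in kb (horizontal axis), for the 18 loci with at least 1 CPM. Filled circles are the 8 Ly6 genes and open squares other loci, coloured red for higher, blue for lower and grey for neither. Gml, with 0 knockdown counts, is drawn at its bound of -3.65. Ly6i stands highest at 8.46 and Ly6k lowest at -4.04.

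Of 40 other Ly6/uPAR family members listed, 25 were in the table and 13 had at least 1 CPM in 1 library. Beside 29.7% and 32.5% of all loci, 6 of these 13 were higher, 6 lower and 1 neither. Their median log2 ratio was -0.02. Of the 12 called, 8 reached 1 CPM in only the library where they were high (Ly6g, Lypd1, Gpihbp1 and Cd177 in the knockdown, Ly6g6e, Lypd4, Gml and Tex101 in the control), so the filter fixed their direction. With a filter at 5 CPM, 2 were higher and 4 lower of 6 left, and nothing is read from the split. Plaur, the urokinase receptor, had 36 and 1295 counts and was 35.0-fold higher. Cd177, a neutrophil surface protein, had 4 and 242 counts, or 5.73 on the log2 scale (4.52 to 7.79). Ly6g, the standard neutrophil marker of the mouse, had 1 and 85 counts, or 5.82 on the log2 scale (3.87 to 11.71). Gpihbp1, which holds lipoprotein lipase on capillaries, had 2 and 29 counts, or 3.54 on the log2 scale (1.85 to 6.95). The other 2 called higher were Lypd1, with 6 and 29 counts, and Ly6g5b, with 18 and 50 counts.

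The lower members named were, besides Tex101, the sperm gene Lypd4, the Ly6k neighbour Gml and Cd59a, which guards cells from complement. Lypd4 had 114 and 0 counts, at least 38.5-fold lower in the knockdown library against 3 counts there. Gml had 37 and 0 counts, at least 12.5-fold lower against the same floor. Cd59a had 1767 and 332 counts, 5.39-fold lower.

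Most Ly6 proteins need the genes that build and attach the GPI anchor. Of 26 such genes measured, 6 were higher, 7 lower and 13 neither, beside 29.7% and 32.5% of all loci, so the count is no result about these genes. Their median log2 ratio was 0.11. By library totals 3 were higher, 10 were lower and the median was -0.33. With the whole interval beyond 2-fold, 2 were higher and 1 lower. Of the remodelling genes, Pgap1 was 7.14-fold higher, with 307 and 2227 counts, and Pgap2 was 3.01-fold lower, with 4099 and 1381 counts. Pigz, a mannosyltransferase gene, was 3.83-fold higher, and Pigg, which adds ethanolamine phosphate, 1.80-fold lower. The range over the 26 genes, -1.59 to 2.84, was narrower than that over the 8 Ly6 genes.

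Markers of cell types in which the higher Ly6 genes are known moved with them, and their part in the ratios was not tested. The counts below stand beside 29.7% of all loci higher and 32.5% lower by the same rule. All 10 measured genes of inflammatory monocytes and monocyte-derived macrophages were higher, with a median log2 ratio of 2.97. Their sums were 435 and 2489 CPM, of which Csf1r gave 165 and 970 CPM. Chil3, of that list, was at 0 in the control library and reached 1 CPM in the knockdown library alone. The integrin gene Itgam was 22.8-fold higher. All 12 neutrophil genes were higher, with a median of 8.79, or 6.90 with genes at 0 set at their bound, though 9 of them reached 1 CPM in the knockdown library alone. Their sums were 14.3 and 1019 CPM, and S100a8, Retnlg, Elane and Mmp8 were at 0 in the control library. S100a9 had 1 and 7560 counts. All 11 T cell genes were higher, with a median of 3.19 and sums of 102 and 624 CPM. Il7r and Cd8a, at 15.4-fold and 13.9-fold, had the ratios farthest from 1.

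Interferon response genes were higher in all 21 cases, beside 29.7% of all loci, with a median log2 ratio of 2.98. Their sums were 863 and 4410 CPM. Rsad2 was 136-fold and Oasl1 24.9-fold higher, though Rsad2 reached 1 CPM in the knockdown library alone. The lowest of the 21 ratios was 1.43, above that of Ly6e at 0.69, although Ly6e is itself interferon-induced. Endothelial genes, the other known setting of Ly6a and Ly6c1, were higher in 11 of 12 cases. Their median was 1.68 and their sums were 176 and 434 CPM. By library totals 9 of the 12 were higher, and with the whole interval beyond 2-fold 8 were. Eng and Vwf were 6.86-fold and 6.83-fold higher, and Robo4 was 1.93-fold lower. Ly6c1, with a log2 ratio of -0.35, lay below 11 of these 12 genes. In B and plasma cell genes the sums were 1959 and 2858 CPM, and Sdc1 was 7.10-fold and Cd79b 3.08-fold higher. By library totals 5 of those 9 genes were higher. Of the testis cell lists, all 7 Leydig and all 9 Sertoli genes were lower, beside 32.5% of all loci, with medians of -8.06 and -2.91. Lhcgr and Hsd3b1 led the Leydig list, at -10.22 and -8.38, and Rhox5 and Cst9 the Sertoli list, at -6.45 and -6.40. Lhcgr, Rhox5 and Fshr, another Sertoli gene, reached 1 CPM in the control library alone, so the filter fixed their direction.

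**Figure D5:**
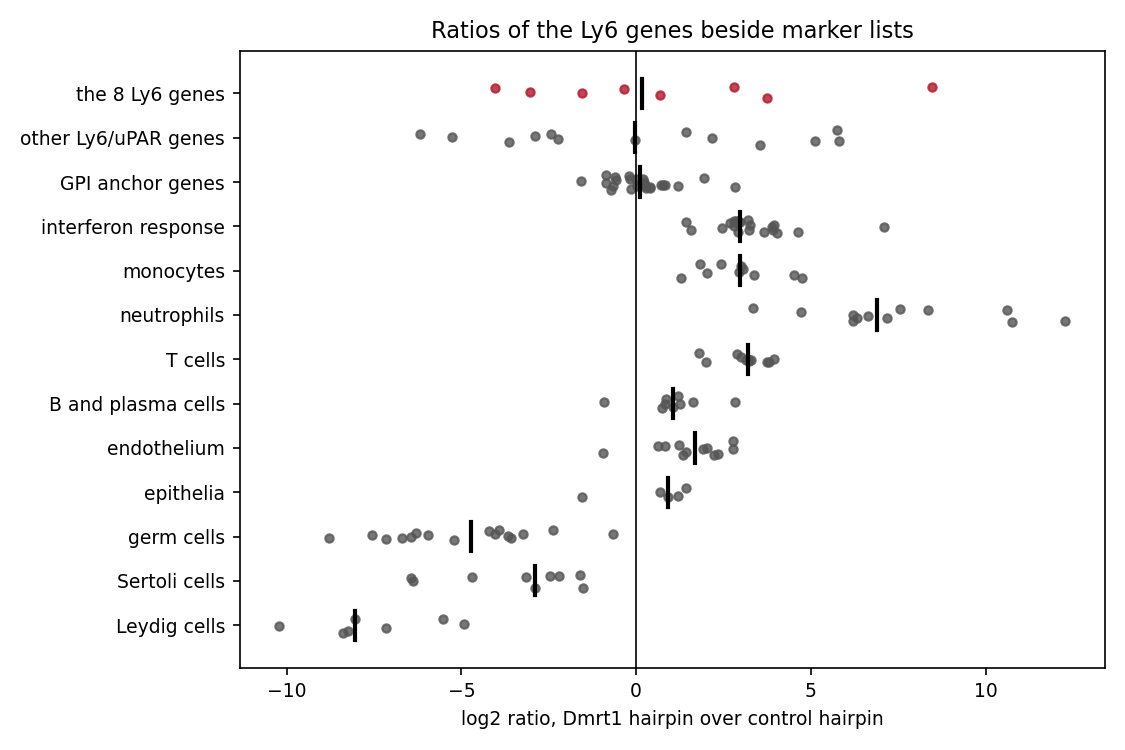
Log2 ratio of knockdown over control (horizontal axis) for the 8 Ly6 genes and for each gene with at least 1 CPM on 12 lists (points, with random vertical scatter; bars, medians; genes at 0 counts in 1 library at their bound). The 8 Ly6 genes range from -4.04 to 8.46, while immune lists lie mostly to the right and germ, Sertoli and Leydig cell lists wholly to the left of 0.

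For each Ly6 gene, the 2 loci nearest in their pair of log2 (FPKM + 0.1) values were found over the 2 libraries. Only loci with an Ensembl identifier and an established symbol were searched, so a nearer locus may have been passed over. Ly6i lay nearest to the haptoglobin gene Hp (6.42 and 1251 FPKM) and to H2-M2 (7.79 and 1011 FPKM). Ly6c2 lay nearest to the lysosomal protease gene Ctsc (38.0 and 514 FPKM), and Ly6a to Ctsb (203 and 967 FPKM). Ly6e lay nearest to the immunoglobulin joining chain gene Jchain (1315 and 2278 FPKM). Ly6k lay nearest to Slc30a2 and Ly6d to Selenbp1, a selenium-binding protein gene. Ly6h lay nearest to Map3k21, and Ly6c1 to Lyrm2. With 2 libraries such nearness means only that both levels were alike.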

How the data were processed

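Per the file headers, the deposited table holds read counts and FPKM for each locus, beside EBSeq results (FDR cut-off 0.01, fold cut-off 2). Tools listed in the submitters' processing notes, without role or order, were edgeR 3.12.1, DESeq, featureCounts, Subread 1.5.1, Trimmomatic 0.36 and STAR 2.5.3a, and the build was mm10. Library preparation used a stranded kit for mRNA, per the labels' protocols. The gene lists, the Ly6 genes and the named genes were chosen with earlier results of these data known.

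Counts of all 18722 loci were scaled with TMM (edgeR 4.0.16, R 4.3.3; factors 1.17 and 0.858), with a prior count of 0.5. Loci with at least 1 CPM in 1 library, 15104 in all, were read, which were also those of the EBSeq comparison. A gene at 0 counts was set against 3 counts per library (0.168 CPM in the control, 0.122 CPM in the knockdown library). Intervals and floors cover counting error only. The procedure was run on simulated data with counting error only, in which few genes were changed, equally up and down. Such data cannot check the scaling where many loci differ, as they do here. Of each list, up to 2 genes in each direction were named whose interval bound nearest 0 lay farthest from 0, with at least 20 counts in 1 library (4 for other Ly6/uPAR genes, and Ly6g and Tex101 by role).

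Gene positions and transcripts came from GENCODE M21 (GRCm38, the same assembly as mm10), and promoters from RefSeq on GRCm38.p6. Coding sequences were those of the lowest-numbered complete transcript of each gene, aligned with Biopython 1.88. A planned comparison of proteins was replaced by coding sequences. Alternatives were size factors of DESeq2 1.42.0, scaling by library totals, a prior count of 5, deposited FPKM with a pseudocount of 0.1 or 1, other filters and folds, and near-copies summed. Some genes of the lists were not analysed here. Python 3.11.15 was used.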

Additional observations from a re-analysis of the deposited data

How the results depend on the processing

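No paired analysis was possible because there is a single library per group, and leaving out a library was not run because it would leave nothing to compare. None of the 8 Ly6 genes changed sign under library totals, DESeq2 size factors, a prior count of 5 or deposited FPKM. Library totals moved 7 of the 8 ratios out of their intervals, took Ly6e (0.25) from higher to neither and Ly6c1 (-0.79) from neither to lower, and so left 3 genes higher and 4 lower. Ly6e also fell short of 1.5-fold by FPKM, at 0.53 with either pseudocount, and Ly6h moved to -2.18 with a pseudocount of 1. Summing near-copies turned Ly6c1 positive by construction, to 2.54 with Ly6c2 and to 3.55 with all 4. With the whole interval beyond 2-fold, 2685 loci were higher and 3142 lower, fewer because the rule is stricter. With a filter at 5 CPM, 2 other Ly6/uPAR genes were higher in place of 6. Genes higher were 47.8% of those called with TMM and 31.1% with library totals. The median of other Ly6/uPAR genes changed sign by FPKM, to 0.26 with a pseudocount of 0.1 and 0.22 with 1, and that of GPI anchor genes with library totals, to -0.33. The cause was not tested. Depth limits Ly6h most, with 28 counts in the knockdown library and the widest interval of the 8, then Ly6i, with 44 in the control library.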

Other observations

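Several further Ly6/uPAR genes stayed under 1 CPM in both libraries, and their counts are given without a ratio. Gml2, next to Gml, had 15 and 0 counts, and Spaca4, a sperm membrane protein gene, 12 and 0 counts. Lypd6, a modulator of Wnt signalling, had 14 and 13 counts. Lypd8 was at 0 in both libraries.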
